A study of Mus musculus with 7 samples.

Results

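The fibrillar collagens are the chains that assemble into the banded fibrils of connective tissue. The 10 mouse genes described here, *Col1a1*, *Col1a2*, *Col3a1*, *Col5a1*, *Col5a2*, *Col5a3*, *Col2a1*, *Col11a1*, *Col24a1* and *Col27a1*, were chosen by symbol from a table of 47729 gene identifiers. All 10 were present, and all 10 passed the filter on low counts. Total RNA of mouse aorta tissue was read in 4 libraries labelled wild type (WT) and in 3 labelled MMP19KO, given as Mmp19-/- in the series design (KO). *Mmp19*, the targeted gene, codes for a matrix-cleaving metalloproteinase. The labels give no age, strain, sex, treatment or aortic segment, no description of the allele or its tissue range, and nothing on whether libraries stem from different animals. The p-values therefore measure the spread between these libraries, which may be technical.

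Each fibrillar collagen chain is made as a procollagen with a long triple helix built from repeated Gly-X-Y triplets. Its end domains are cut off outside the cell. Types I and III form the bulk of the fibrils in the arterial wall. Type V is built into those fibrils in small amounts and limits their width. Types II and XI play the matching parts in cartilage, where type XXVII is also made, and type XXIV is best known from developing bone. Chains mix between types, since *Col11a1* and *Col5a1* products are close relatives that can replace one another in V/XI molecules. In RNA of a whole tissue, fewer cells of a type and less RNA per cell cannot be told apart.

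The shared architecture can be read from the transcripts. In the GENCODE transcript with the longest coding sequence of each gene, the longest run of triplets that each begin with a glycine codon (GGN) spanned 338 triplets in *Col1a1*, *Col5a1* and *Col11a1*, 339 in *Col1a2*, *Col5a2* and *Col2a1*, 344 in *Col3a1* and 337 in *Col5a3*. It was shorter in the remaining pair, with 216 triplets in *Col24a1* and 217 in *Col27a1*. Every exon that lay wholly inside such a run had a length that is a multiple of 9 bases, that is, of whole triplets, and exons of 54 bases (6 triplets) were the most frequent, with 21 of 41 in *Col1a1*, 31 of 48 in *Col11a1* and 24 of 35 in *Col24a1* and *Col27a1*. The first such exon is shown for a main wall chain, its cartilage counterpart and the 2 interchangeable V/XI chains, 5′ to 3′ on the coding strand, with the 6 glycine codons in capitals. These are exon 8 of *Col1a1* (chr11:94939904-94939957, plus strand), exon 10 of *Col2a1* (chr15:97996489-97996542, minus strand), exon 15 of *Col5a1* (chr2:27965251-27965304, plus strand) and exon 15 of *Col11a1* (chr3:114108281-114108334, plus strand), all coding, in GRCm38.
Col1a1: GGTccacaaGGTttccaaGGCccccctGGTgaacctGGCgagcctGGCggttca
Col2a1: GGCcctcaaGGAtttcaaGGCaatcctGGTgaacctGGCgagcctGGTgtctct
Col5a1: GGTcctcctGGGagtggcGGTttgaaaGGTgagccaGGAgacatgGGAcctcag
Col11a1: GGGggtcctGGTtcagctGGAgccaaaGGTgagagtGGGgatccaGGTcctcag

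Upstream sequence was compared for *Col11a1* and *Col5a1*, whose transcripts part in the results, and for *Col24a1*. RefSeq promoter windows (GRCm38.p6) were found for 7 of the 10 genes. *Col1a1*, *Col2a1* and *Col5a2* had no entry. The 250 bases before each start site are printed 5′ to 3′ on the gene's strand, at chr3:114030290-114030539 for *Col11a1*, chr2:27886175-27886424 for *Col5a1* and chr3:145292222-145292471 for *Col24a1*, all on the plus strand. Capitals mark motif matches, searched on both strands over windows of 300 bases that reach 50 bases past the start. The motifs were the CCAAT box, the GC box with the letters GGGCGG and the TATA box with the letters TATAAA. A SOX core was searched as ACAATG. A CREB site was searched as TGACGTCA.
Col11a1: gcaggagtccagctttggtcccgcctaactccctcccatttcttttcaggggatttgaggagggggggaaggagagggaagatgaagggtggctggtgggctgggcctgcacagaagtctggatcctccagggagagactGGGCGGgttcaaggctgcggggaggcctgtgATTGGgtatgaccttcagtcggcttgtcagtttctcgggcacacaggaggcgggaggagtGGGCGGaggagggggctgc
Col5a1: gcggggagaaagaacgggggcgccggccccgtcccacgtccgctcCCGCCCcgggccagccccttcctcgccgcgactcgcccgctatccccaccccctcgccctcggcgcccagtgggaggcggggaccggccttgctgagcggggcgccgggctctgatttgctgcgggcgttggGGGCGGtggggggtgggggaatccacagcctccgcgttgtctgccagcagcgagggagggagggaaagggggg
Col24a1: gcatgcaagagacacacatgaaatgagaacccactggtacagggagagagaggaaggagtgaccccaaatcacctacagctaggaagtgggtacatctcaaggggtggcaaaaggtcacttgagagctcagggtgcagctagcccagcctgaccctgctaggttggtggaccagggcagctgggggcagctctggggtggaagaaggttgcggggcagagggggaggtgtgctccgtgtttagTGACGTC

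The *Col11a1* window held a CCAAT box in reverse orientation, 79 bases before the start, and 2 GC boxes. The *Col5a1* window held 2 GC boxes and no CCAAT box. Among the other windows, *Col5a3* and *Col1a2* each held CCAAT boxes. The *Col24a1* window held a CREB site whose last base is the first transcribed one, so that 7 of its 8 bases stand in the printed stretch. No window of the 7 genes held the SOX core. Over 32851 mouse promoter windows of this length, 37.4% held the CCAAT box, 35.7% the GC box, 13.6% the TATA box, 12.6% the SOX core and 1.79% the CREB site. These matches are a description of letters, and no motif overlapped another among those marked.

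The libraries summed to between 68151472 and 76926790 deposited counts. The targeted gene was still counted: *Mmp19* read 24.8, 24.8, 20.7 and 34.7 CPM in WT replicates 1 to 4 and 25.5, 11.95 and 15.9 CPM in KO replicates 1 to 3, with KO replicate 1 inside the WT range (CPM, counts per library size set by TMM, the trimmed mean of M-values). The change, -0.56 on the log2 scale (SE 0.29), was not called by edgeR (adjusted p = 0.368). A gene-level count cannot tell a deleted exon from the rest of the transcript, so KO below means a library labelled knockout. Smooth muscle identity was present in every library, with 9 contractile markers summing to 18346 to 20294 CPM in WT and to 3532, 13823 and 7218 CPM in KO replicates 1, 2 and 3. KO replicate 1 was the library that stood furthest from the others for the collagens too. It was the highest of all 7 libraries for 8 of the 10 genes, against 26.5% of all genes tested, and values without it are given beside the collagens whose size depended on it.

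Fibrillar collagens together held 2.59%, 1.45%, 1.76% and 2.00% of all counts in WT replicates 1 to 4 and 3.88%, 2.10% and 2.00% in KO replicates 1 to 3. Per length of transcript, the wall chains made up nearly all of this, with 99.8% to 99.9% of the fibrillar collagen signal in WT and 99.5% to 99.8% in KO. The order of the levels in WT ran from *Col3a1* at 1317 ± 321 CPM per kb of transcript (SD, n = 4), through *Col1a2* at 1158 ± 329 and *Col1a1* at 822 ± 273, to *Col5a2* at 117 ± 25.0 and *Col5a1* at 101 ± 25.4. Below these lay *Col5a3* at 9.34 ± 2.27, *Col27a1* at 5.92 ± 1.09, *Col11a1* at 0.455 ± 0.413, *Col2a1* at 0.163 ± 0.104 and *Col24a1* at 0.0472 ± 0.0336 CPM per kb (SD, n = 4). Between neighbours, the means of *Col3a1* and *Col1a2* and of *Col5a2* and *Col5a1* differed by less than 1 SD between libraries. Within each WT library the order of these pairs was the same. *Col11a1* stood above *Col2a1* in WT replicates 1 to 3 and below it in WT replicate 4. The order of the first 3 also depends on the length used: divided by all merged exons, *Col1a1* at 742 CPM per kb passed *Col1a2* at 499. On that length *Col5a1* at 99.8 CPM per kb also passed *Col5a2* at 80.9.

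In KO the first 6 were the same genes in the same order, except that *Col1a1* passed *Col1a2* in KO replicate 1, while *Col11a1* ranked higher in part of the libraries. It ranked below *Col27a1* in all 4 WT libraries and in KO replicate 2, and above it in KO replicates 1 and 3 (15.2 against 6.59 and 5.38 against 4.71 CPM per kb). *Col11a2*, a further fibrillar collagen gene of the mouse outside the chosen 10, encodes the partner chain of *Col11a1* in type XI. It stood at 9.35 ± 3.18 CPM in WT and 8.45 ± 2.79 CPM in KO (SD, n = 4 and 3), and its change was -0.15 on the log2 scale (SE 0.34, adjusted p = 0.86 by edgeR).

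**Figure D1:**
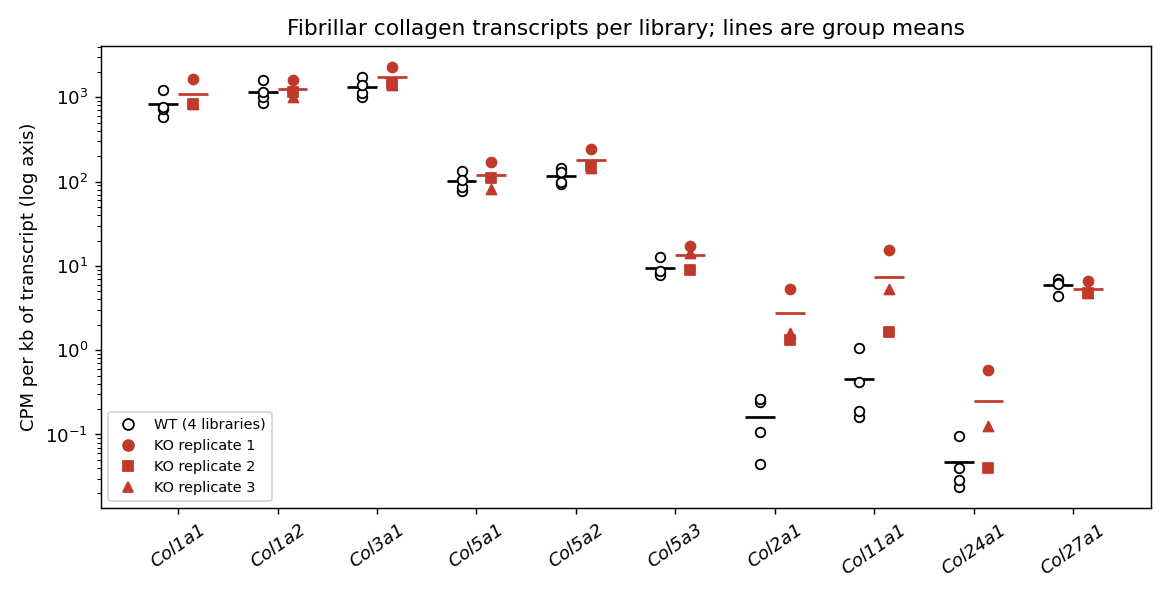
Levels of the 10 fibrillar collagen genes in each library, in CPM per kb of transcript on a log axis; open circles are the 4 WT libraries, red symbols KO replicates 1 (circle), 2 (square) and 3 (triangle), and lines the group means. The wall chains *Col1a1* to *Col5a3* overlap between groups, while all 3 KO libraries lie above all 4 WT libraries for *Col2a1* and *Col11a1*.

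The comparison of KO with WT asks which fibril chains differ in transcript level between these aortas. No fibrillar collagen gene passed edgeR's quasi-likelihood test over all 19188 genes (0 of 10 at an adjusted p under 0.05, where 0.0156% of all genes passed). At an unadjusted p under 0.05 there were 4 of 10, all higher in KO, against 9.92% of all genes in that direction, namely *Col2a1*, *Col11a1*, *Col24a1* and *Col5a2*. DESeq2 called 2 of 10, *Col2a1* and *Col11a1*, both higher, where it called 8.37% of all genes, 5.32% higher and 3.05% lower, and limma-voom called 0 of 10 against 0.0365% of all genes. The KO and WT values did not overlap for these 2 genes, with KO above, and for 16.7% of all genes, 8.17% with KO above and 8.56% with KO below. The median log2 fold change was 0.40 over the 6 chains of types I, III and V and 0.47 over all 10 genes, against -0.03 over all genes tested, and 9 of the 10 were positive against 46.9% of all genes. Without KO replicate 1, the edgeR values of these 6 wall chains ran from -0.098 (*Col1a2*) to 0.333 (*Col5a2*). *Col5a1*, at -0.089, was then negative too.

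**Figure D2:**
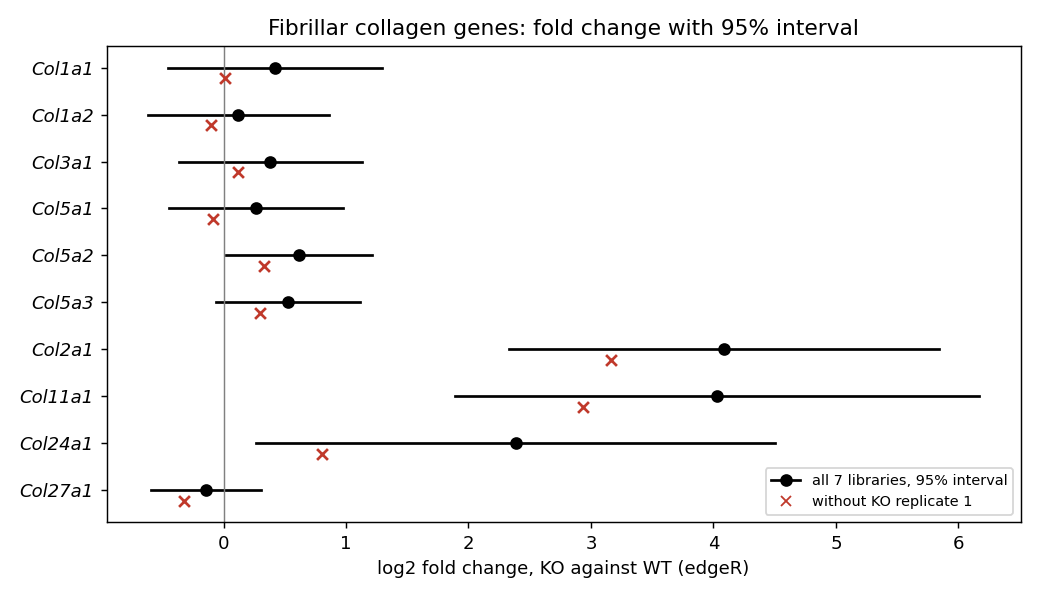
Log2 fold change of KO against WT for each fibrillar collagen gene (edgeR), with 95% intervals as bars; crosses give the value without KO replicate 1. The wall chains lie between 0.12 and 0.62 and *Col27a1* at -0.14, while *Col2a1* and *Col11a1* lie at 4.09 and 4.03, and at 3.16 and 2.93 without that library.

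Type I collagen, the main load-bearing fibril of the adventitia and media, is a trimer of 2 chains from *Col1a1* and 1 from *Col1a2*. *Col1a1* (chr11:94936224-94953042, plus strand) read 7217, 3499, 4262 and 4512 CPM in WT replicates 1 to 4, and 9724, 4912 and 4928 CPM in KO replicates 1 to 3. KO replicate 1 was the highest and WT replicate 1 the next, and the other KO libraries lay within the WT range. The log2 fold change was 0.42 (SE 0.37, 95% interval -0.45 to 1.30, edgeR adjusted p = 0.606), and it was 0.009 without KO replicate 1. *Col1a2* (chr6:4504814-4541544, plus strand) read 8628, 4576, 5331 and 6243 CPM in WT and 8595, 6247 and 5366 CPM in KO. The KO values lay wholly inside the WT range, and edgeR gave a log2 change of 0.12 (SE 0.32, 95% interval -0.62 to 0.86, adjusted p = 0.877) and of -0.098 without KO replicate 1.

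Type III collagen, a homotrimer abundant in distensible vessels, comes from *Col3a1* (chr1:45311538-45349706, plus strand). It read 9621, 5668, 6190 and 7837 CPM in WT and 12751, 8106 and 7817 CPM in KO. As for *Col1a1*, KO replicate 1 alone lay above the WT range. The log2 fold change was 0.38 (SE 0.32, 95% interval -0.37 to 1.13, edgeR adjusted p = 0.579), and 0.115 without KO replicate 1. The intervals of types I and III are wide, so the libraries do not show that these chains were alike in the groups.

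Type V collagen starts fibrils and sets their width. *Col5a1* (chr2:27886425-28039514, plus strand) encodes the chain present in most V molecules and read 1135, 658, 716 and 879 CPM in WT and 1450, 918 and 679 CPM in KO. The groups overlapped, with a log2 fold change of 0.26 (SE 0.30, 95% interval -0.45 to 0.97, edgeR adjusted p = 0.696), which turned to -0.089 without KO replicate 1. *Col5a2* (chr1:45374321-45503282, minus strand), the second chain, lies next to *Col3a1* on chromosome 1 and read 964, 624, 651 and 865 CPM in WT and 1607, 1009 and 952 CPM in KO. Only KO replicate 3 lay below the highest WT library. Its log2 fold change was 0.62 (SE 0.26, 95% interval 0.02 to 1.21, edgeR unadjusted p = 0.0447, adjusted p = 0.278), the highest among the 6 wall chains, and 0.333 without KO replicate 1. *Col5a3* (chr9:20770050-20815067, minus strand), a chain of limited distribution, read 50.2, 47.6, 77.8 and 53.1 CPM in WT and 105, 55.4 and 86.4 CPM in KO. KO replicate 2 lay among the WT libraries, and the log2 fold change was 0.53 (SE 0.25, 95% interval -0.06 to 1.12, edgeR adjusted p = 0.339), or 0.301 without KO replicate 1.

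*Col2a1* and *Col11a1* started from very low levels in WT, while *Col27a1*, also a cartilage chain, had a mean of 45.05 CPM there. *Col2a1* (chr15:97975602-98004695, minus strand) encodes the homotrimeric main fibril of cartilage. It read 1.22, 0.225, 0.545 and 1.33 CPM in WT (16 to 98 deposited counts) and 27.5, 6.81 and 8.08 CPM in KO. Every KO library was above every WT library, and KO replicate 2, the lowest of them, stood at 8.20 times the WT mean. The mean in WT was 0.831 ± 0.533 CPM (SD, n = 4), and that in KO 14.1 ± 11.6 CPM (SD, n = 3). The log2 fold change was 4.09 (SE 0.75, 95% interval 2.33 to 5.84), with an edgeR adjusted p of 0.165, a DESeq2 adjusted p of 9.12e-07 and a limma-voom adjusted p of 0.0727. Even at its highest, in KO replicate 1, *Col2a1* reached 5.39 CPM per kb of transcript where *Col1a1* reached 1640.

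*Col11a1* (chr3:114030540-114220718, plus strand) encodes the type XI chain that sits in the core of cartilage fibrils. It read 3.23, 1.24, 8.05 and 1.44 CPM in WT and 117, 12.7 and 41.3 CPM in KO. WT replicate 3 was well above the other WT libraries and still below KO replicate 2, the lowest of the KO group. The log2 fold change was 4.03 (SE 0.92, 95% interval 1.89 to 6.17), with an edgeR adjusted p of 0.17, a DESeq2 adjusted p of 5.65e-05 and a limma-voom adjusted p of 0.0751. Leaving out KO replicate 1 gave 2.93, and leaving out WT replicate 3 gave 4.86. Without KO replicate 2, edgeR called *Col2a1* (log2 fold change 4.49, adjusted p = 0.0346) and *Col11a1* (4.56, adjusted p = 0.039). It did not call *Col27a1* (-0.015, adjusted p = 0.98). That fit called 5.16% of all genes, 3.34% higher.

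The remaining pair has the shorter unbroken run of triplets. *Col24a1* (chr3:145292472-145552011, plus strand), known from developing bone, was the scarcest of the 10, at 0.690, 0.169, 0.287 and 0.204 CPM in WT and 4.11, 0.286 and 0.893 CPM in KO. KO replicates 1 and 3 lay above the WT range and KO replicate 2 inside it. Its log2 fold change of 2.39 (SE 0.91, edgeR unadjusted p = 0.032, adjusted p = 0.246) was 0.802 without KO replicate 1. *Col27a1* (chr4:63214004-63334991, plus strand), a chain of cartilage, read 53.0, 47.6, 46.3 and 33.4 CPM in WT and 50.2, 36.5 and 35.8 CPM in KO. All 3 KO values lay inside the WT range (log2 fold change -0.14, SE 0.19, 95% interval -0.59 to 0.31, edgeR adjusted p = 0.741), and the value was -0.325 without KO replicate 1. Among the cartilage-type chains, the counts of *Col2a1* and *Col11a1* separated the groups and those of *Col27a1* did not.

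Sums over both classes overlapped between the groups. The wall chains summed to 20077 ± 5480 CPM in WT and 25103 ± 7938 CPM in KO (SD, n = 4 and 3). The sum of *Col2a1*, *Col11a1* and *Col27a1* was 57.4, 49.0, 54.9 and 36.2 CPM in WT and 194, 56.0 and 85.2 CPM in KO. KO replicate 2 lay inside the WT range, and *Col27a1* was the largest part of the sum in that library and in WT.

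Ratios between chains within a library do not depend on how libraries are scaled, and 6 were compared. The test was an exact permutation of the library labels, 2-sided, with 35 possible splits and a smallest p of 0.0286. *Col2a1* per *Col1a1*, the cartilage against the wall fibril, stood at 0.000197, 0.000075, 0.000149 and 0.000343 per length in WT and at 0.00329, 0.00161 and 0.00191 in KO. Every KO library was higher, with a mean log2 difference of 3.63 (exact permutation p = 0.0286, adjusted over the 6 ratios p = 0.0857). *Col11a1* per *Col5a1*, the interchangeable V/XI chains, stood at 0.00312, 0.00206, 0.0123 and 0.0018 in WT and at 0.0883, 0.0152 and 0.0666 in KO. All KO libraries again lay above WT, with a mean log2 difference of 3.68 (exact permutation p = 0.0571, adjusted p = 0.114), and KO replicate 2 was close to WT replicate 3.

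Among the wall chains the ratio that separated the groups lay inside type V. *Col5a1* per *Col5a2* was 0.927, 0.831, 0.867 and 0.801 per length in WT and 0.711, 0.717 and 0.563 in KO, with every KO library below every WT library and a mean log2 difference of -0.37 (exact permutation p = 0.0286, adjusted p = 0.0857). *Col1a1* per *Col1a2* was 0.754, 0.690, 0.721 and 0.652 in WT and 1.02, 0.709 and 0.828 in KO. KO replicate 2 lay within the WT range, and the log2 difference of 0.26 gave an exact permutation p of 0.114 (adjusted p = 0.171) and was 0.124 without KO replicate 1. *Col3a1* per *Col1a1*, at 1.64 ± 0.19 in WT and 1.62 ± 0.192 in KO (SD, n = 4 and 3), had an exact permutation p of 0.914, and *Col5a1* per *Col1a1*, at 0.125 ± 0.0123 and 0.111 ± 0.0181, one of 0.229. None of the 6 ratios passed 0.05 after adjustment. As a share of all fibrillar collagen signal per length, *Col5a2* was 3.00% to 3.64% in WT and 4.04% to 4.12% in KO. *Col1a2* was 32.3% to 33.2% in WT and 26.8% to 31.3% in KO, neither with overlap. The shares of *Col2a1* and *Col11a1* did not overlap either, with KO above, while those of the other members did. Shares are parts of a whole in each library, so they are tied to each other. They depend on the transcript length used and were not tested.

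**Figure D3:**
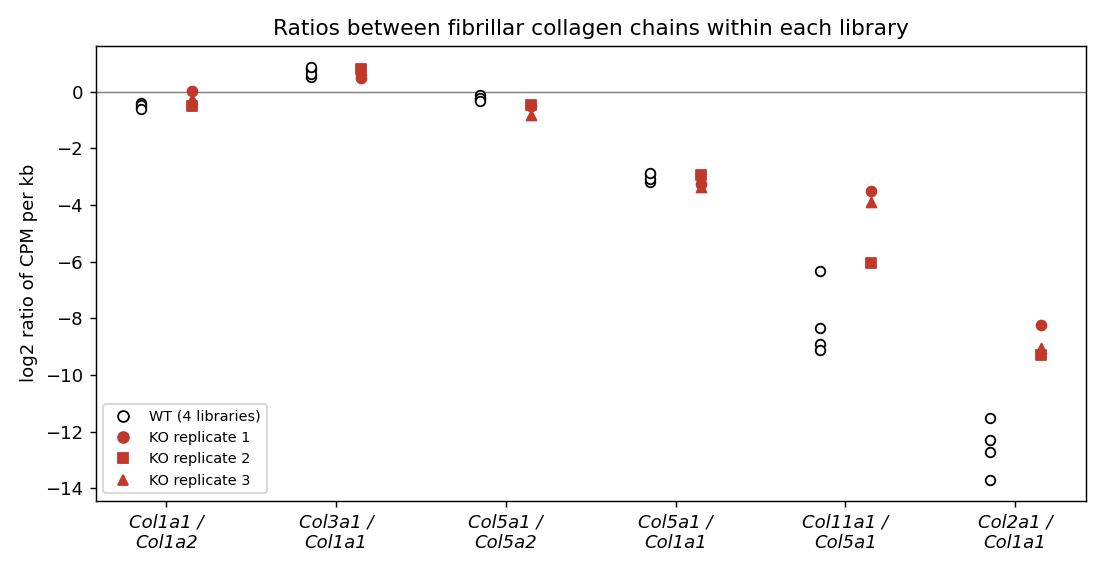
Log2 ratios of CPM per kb between pairs of fibrillar collagen chains in each library; open circles are WT, red symbols KO replicates 1 to 3, and the grey line marks equal levels. The KO libraries lie above WT for *Col11a1* per *Col5a1* and *Col2a1* per *Col1a1* and below WT for *Col5a1* per *Col5a2*, while *Col3a1* per *Col1a1* overlaps.

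Across the 7 libraries the profiles of the type I, III and V genes lay nearer to *Col1a1* than those of *Col2a1* and *Col11a1*, while *Col27a1* at 0.42 was nearer than *Col5a3*. The root-mean-square difference between centred log2 CPM profiles was 0.15 for *Col1a1* and *Col3a1*, 0.18 for *Col1a1* and *Col5a1*, 0.20 for *Col1a1* and each of *Col1a2* and *Col5a2*, and 0.44 for *Col1a1* and *Col5a3*. The nearest genes outside the family were *Slc29a3* (0.08), a nucleoside transporter, *Vcan* (0.09), the large proteoglycan versican, *Cpox* (0.12), an enzyme of heme synthesis, and *Creb3l1* (0.13), a transcription factor. For *Col2a1* the nearest were *Col8a1* (0.63), a short-chain collagen, *Cthrc1* (0.68), a secreted glycoprotein of injured arteries, *Cd244a* (0.74), a receptor of natural killer and myeloid cells, and *Ms4a6d* (0.75), a myeloid membrane protein. *Col11a1* was at 1.11 from *Col2a1* and *Col1a1* at 1.91. These distances describe 7 libraries that also differ in other ways.

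The genes that fold, process and cross-link procollagen differed in direction. Of 34 tested, edgeR called 0, 5 were higher and 2 lower at an unadjusted p under 0.05 (9.92% and 7.27% of all genes), and the median log2 fold change was 0.21. *Lox*, the cross-linking enzyme lysyl oxidase, read 778, 426, 439 and 495 CPM in WT and 1407, 915 and 1008 CPM in KO, without overlap (log2 fold change 1.06, SE 0.27, edgeR adjusted p = 0.175, DESeq2 adjusted p = 0.00586). *P4ha3*, a prolyl hydroxylase subunit, stood at 2.21 ± 0.649 CPM in WT and 13.4 ± 10.8 CPM in KO, and *Pcolce2*, an enhancer of C-propeptide cleavage, at 146 ± 25.9 and 72.2 ± 30.1 CPM (SD, n = 4 and 3).

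Of 19 genes tested for proteins that sit on the fibril surface, edgeR called 0, 7 were higher and 1 lower at an unadjusted p under 0.05 (9.92% and 7.27% of all genes), and the median was 0.19. *Lum*, the leucine-rich proteoglycan lumican that spaces fibrils, read 225, 139, 180 and 205 CPM in WT and 447, 422 and 486 CPM in KO (log2 fold change 1.27, SE 0.18, edgeR adjusted p = 0.165, DESeq2 adjusted p = 5.08e-08). *Col12a1*, a fibril-associated collagen, stood at 45.8 ± 10.7 and 196 ± 171 CPM, and *Thbs2*, a thrombospondin that affects fibril shape, at 89.7 ± 24.7 and 222 ± 118 CPM in WT and KO (SD, n = 4 and 3). *Col9a1*, *Col9a2* and *Col9a3*, which coat type II fibrils in cartilage, had log2 fold changes of 0.86, 0.60 and 0.19 and unadjusted p-values from edgeR of 0.292, 0.639 and 0.721. These 3 genes were singled out with their values known.

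Fibril-cleaving proteases and uptake genes had a median of 0.72 over 11 tested, with 8 higher and 0 lower at an unadjusted p under 0.05 (9.92% and 7.27% of all genes) and 0 called by edgeR. DESeq2 called 4 higher, against 5.32% of all genes. *Mmp13*, a collagenase, stood at 0.415 ± 0.108 CPM in WT and 3.07 ± 2.01 CPM in KO, *Fap*, a fibroblast protease, at 17.2 ± 3.81 and 30.3 ± 4.45 CPM, and *Ctsk*, the collagen-degrading cathepsin K, at 46.4 ± 8.52 and 71.1 ± 8.46 CPM (SD, n = 4 and 3). Of 11 collagen receptors edgeR called 0, with 4 higher and 2 lower at an unadjusted p under 0.05 (9.92% and 7.27% of all genes) and a median of -0.25. Among them *Itga11*, the integrin subunit with which fibroblasts bind type I collagen, read 10.8, 9.83, 9.04 and 12.3 CPM in WT and 37.9, 29.9 and 26.8 CPM in KO (log2 fold change 1.59, SE 0.17, edgeR adjusted p = 0.0692, DESeq2 adjusted p = 2.18e-12). *Ddr1*, a receptor kinase for collagen, stood at 69.3 ± 9.36 and 49.1 ± 1.79 CPM and *Lair1*, an inhibitory collagen receptor of leukocytes, at 1.36 ± 0.37 and 12.2 ± 10.8 CPM in WT and KO (SD, n = 4 and 3).

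Of 22 regulators of fibrillar collagen genes, edgeR called 0, with 4 higher and 1 lower at an unadjusted p under 0.05 (9.92% and 7.27% of all genes) and a median of -0.01. *Runx2*, a transcription factor of bone and hypertrophic cartilage, read 1.91, 1.55, 1.43 and 2.05 CPM in WT and 18.3, 4.76 and 6.85 CPM in KO (log2 fold change 2.52, SE 0.47, edgeR adjusted p = 0.165, DESeq2 adjusted p = 2.98e-05). *Snai1*, a mesenchymal transcription factor, stood at 3.48 ± 0.976 and 12.9 ± 10.1 CPM and *Zeb1*, a repressor, at 149 ± 11.9 and 107 ± 21.1 CPM in WT and KO (SD, n = 4 and 3). *Sox9*, which drives *Col2a1* and *Col11a1* in cartilage, read 3.04, 3.35, 5.11 and 4.16 CPM in WT and 14.6, 4.28 and 6.29 CPM in KO, with KO replicate 2 inside the WT range (edgeR unadjusted p = 0.0344, adjusted p = 0.253). It was named after its values had been seen.

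Markers of other cells are given beside the cartilage chains. The 12 chondrocyte markers other than collagens summed to 171 to 286 CPM in WT and to 348, 324 and 257 CPM in KO replicates 1, 2 and 3, so that the sums overlapped. Their part in the collagen values was not tested. Of 11 tested, 7 were positive and 5 higher at an unadjusted p under 0.05 (46.9% and 9.92% of all genes). After adjustment edgeR called 0 of them, and DESeq2 called 3 higher and 0 lower, against 5.32% and 3.05% of all genes. Taken singly, 3 of them had every KO library above every WT library and 0 had every KO library below (8.17% and 8.56% of all genes). *Acan*, aggrecan, read 49.5, 22.2, 29.2 and 35.2 CPM in WT and 132, 88.9 and 76.4 CPM in KO, *Matn3*, matrilin 3, 0.425 ± 0.282 and 1.77 ± 0.915 CPM, and *Epyc*, epiphycan, 2.92 ± 1.09 and 8.29 ± 1.71 CPM in WT and KO (SD, n = 4 and 3). Lower means in KO were found for *Cytl1*, *Hapln1*, *Chad* and, by a log2 fold change of only -0.0076, *Cnmd*. None of them passed at an unadjusted p under 0.05 in edgeR. *Cytl1*, a cytokine-like protein that made up the largest part of the sum in WT, read 145, 112, 134 and 155 CPM in WT and 19.7, 139 and 111 CPM in KO. *Hapln1*, the link protein of aggrecan, stood at 4.76 ± 2.25 and 3.01 ± 1.57 CPM and *Chad*, chondroadherin, at 7.60 ± 6.16 and 5.10 ± 2.63 CPM in WT and KO (SD, n = 4 and 3). The lowest of the list were *Matn1*, at 0 in all libraries but KO replicate 1 (8 counts), *Snorc*, at 13 counts or fewer, and *Ucma*, at 29 counts or fewer in every library. *Cnmd*, chondromodulin, was at 1.02 CPM or less in every library.

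DESeq2 called 10 of 10 macrophage markers higher in KO, against 5.32% of all genes, and edgeR called 0. They summed to 314 to 548 CPM in WT and to 3961, 695 and 1259 CPM in KO replicates 1, 2 and 3. *Col2a1*, *Col11a1*, *Col24a1*, *Col5a3* and *Col1a1* rank the KO libraries in the same order, and KO replicate 2 was the lowest KO library for these 5 of 10 collagens and for 31.1% of all genes. The part of macrophages in these values was not tested. Heart muscle markers summed to 22.1 to 97.3 CPM in WT and to 725, 1231 and 9.69 CPM in KO replicates 1, 2 and 3. The sum in KO replicate 3 was below every WT library. The part of heart muscle in the collagen values was not tested in any library. Skeletal muscle markers summed to 5.59 to 9.06 CPM in WT and to 26.1, 19.8 and 164 CPM in KO, highest in KO replicate 3, and their part was not tested. Adventitial fibroblast markers summed to 3123 to 3691 CPM in WT and 2171, 3369 and 3099 CPM in KO, endothelial markers to 1390 to 1517 and 844, 1457 and 1446 CPM, adipocyte markers to 2386 to 4616 and 1924, 3403 and 5217 CPM, and osteoblast markers to 20.9 to 26.8 and 18.9, 27.2 and 14.9 CPM. None of these 4 sums was higher in all KO libraries, and *Alpl* and *Phex* made up most of the osteoblast sum. *Gsn* was the largest part of the fibroblast sum, at 1569 to 1789 CPM in WT and 677, 1441 and 1255 CPM in KO. The 10 fibroblast markers differed in direction, with 4 positive against 46.9% of all genes. Among the osteoblast markers *Bglap2*, an osteocalcin gene, was at 0 counts throughout. *Dmp1*, a bone matrix protein, lay at 0 to 0.0784 CPM in WT and at 0.171 to 0.389 CPM in KO without overlap (edgeR unadjusted p = 0.0262, adjusted p = 0.233). *Ibsp*, bone sialoprotein, lay at 0.115 to 0.296 and 0.220 to 1.24 CPM (edgeR unadjusted p = 0.0198, adjusted p = 0.218). Both were near the floor, at no more than 32 and 102 counts in a library. *Sp7*, *Alpl* and *Phex*, the other genes tested in this list, had log2 fold changes of 0.27, -0.29 and -0.12 (edgeR unadjusted p = 0.684, 0.21 and 0.831).

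**Figure D4:**
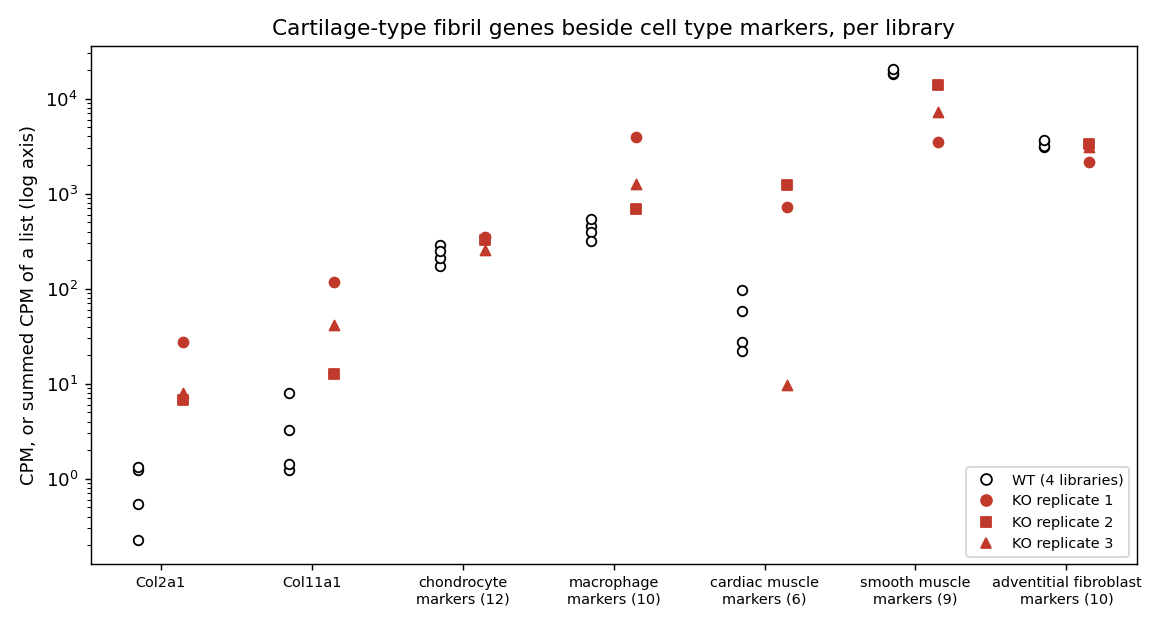
*Col2a1* and *Col11a1* beside the summed CPM of 5 marker lists in each library, on a log axis; open circles are WT, red symbols KO replicates 1 (circle), 2 (square) and 3 (triangle). Macrophage sums lie above WT in all 3 KO libraries, smooth muscle sums below, and heart muscle sums above WT in KO replicates 1 and 2 but not 3.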

How the data were processed

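RNA of mouse aorta was sequenced in 4 WT and 3 KO libraries. The values are estimated counts as deposited, in 1 table of whole numbers with no scaling between libraries. Multiples of 4 from 8 to 40 occurred 1.25 to 1.38 times as often as adjacent values, so a count of 1 may not be 1 read. GRCm38 and mm10 are named per the submitters' processing notes. For the aligner, counter and strand, the processing is not given in the sources used here, so reads of overlapping genes cannot be told apart. The genes overlapping the members held at most 284 counts in a library. Of 47729 identifiers, 47224 matched a symbol, and the rest held at most 0.0711% of a library's counts.

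The counts, already whole, were tested across all genes with edgeR 4.0.16 (R 4.3.3): filterByExpr with *Mmp19* and *Acan* kept regardless (19188 genes), TMM, glmQLFit and glmQLFTest with default settings, no covariates, Benjamini-Hochberg adjustment and a threshold of 0.05. Intervals use the quasi-likelihood SE. DESeq2 1.42.0 and limma-voom (limma 3.58.1) were alternatives. Levels per kb use the length of the GENCODE M21 transcript with the longest coding sequence. Ratios were taken on counts plus a prior of 2 and tested by exact permutation (scipy 1.17.1). Compared pairwise, no 2 libraries agreed within sampling noise. The fit was tested on simulated data.

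The members, gene lists and comparisons were chosen with earlier results of these data known. Genes named are the members, *Mmp19*, *Col11a2*, the 3 genes with the smallest p in each list of collagen-related genes, and the 4 genes of mean 2 CPM or more nearest in profile to *Col1a1* and to *Col2a1*. *Sox9*, the type IX collagen genes and the single genes of the marker lists fall outside this rule and were chosen after their values were seen. Some choices were made after seeing the data. The planned legacy setting of glmQLFit is the installed default and was kept as the reported fit after both settings had been run. The 2-sided permutation p was changed from doubling the 1-sided p to the absolute mean difference, which lowered the smallest possible p from 0.0571 to 0.0286. The transcript length replaced the merged exon length, and the motif search was widened to the 300-base window.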

Additional observations from a re-analysis of the deposited data

Results flagged for a closer look

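The ratio of *Col11a1* to *Col5a1* per length was 0.0123 in WT replicate 3, far above the other WT libraries at 0.0018 to 0.00312. It was the 1 value of 18 sets of 4 WT libraries examined in which a single library lay so far from the rest, and chance gives about 1 in 20. The *Col11a1* level of that library was 8.05 CPM against 1.24 to 3.23 CPM in the other WT libraries.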

How the results depend on the processing

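No member was called by edgeR in any setting run on all 7 libraries. DESeq2 called 2 members, as did edgeR without KO replicate 2, and leaving out 1 library at a time gave 0 to 2. The count over all genes, 3 in the main setting, was 0 without a filter, 7 with a filter of 50 counts in 3 libraries, with limma-voom or with counts divided by 4, 1606 with DESeq2 and 5 with legacy = FALSE (chosen after seeing the data). Without 1 library it ran from 0 to 1029, the latter without KO replicate 2. *Col1a2* (-0.098 to 0.355 without 1 library) and *Col5a1* (-0.089 to 0.5) turned direction, to -0.05 and -0.087 on the log2 scale with limma-voom and to -0.098 and -0.089 without KO replicate 1. *Col24a1* did not pass the stricter filter and has no value there.

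The summed wall chains differed by a log2 value of 0.316 (0.07 to 0.482 without 1 library, lowest without KO replicate 1) and the cartilage chains by 1.00 (0.507 to 1.41, lowest without KO replicate 1). Both sums overlapped between the groups, and neither was tested. Without 1 library, *Col2a1* per *Col1a1* differed by 3.28 to 3.97, *Col11a1* per *Col5a1* by 3.18 to 4.45 and *Col5a1* per *Col5a2* by -0.435 to -0.26. *Col1a1* per *Col1a2* ran from 0.124 to 0.387, *Col3a1* per *Col1a1* from -0.084 to 0.083 and *Col5a1* per *Col1a1* from -0.299 to -0.079. With the 1-sided permutation p doubled (chosen after seeing the data), *Col5a1* per *Col5a2* (-0.375) and *Col2a1* per *Col1a1* (3.63) had exact p-values of 0.0571 and could not go lower. A prior of 0.5 moved no ratio across the threshold. The replicate numbers are not stated to pair libraries. Deviations of same-numbered WT and KO libraries correlated at 0.0814, 0.0683 and 0.34 over genes, and those of differently numbered ones at -0.27 to 0.15. Whether same-numbered libraries share a source or a batch cannot be told from these values. With the replicate block on replicates 1 to 3, edgeR called 0 genes and 0 members, as it did without the block on the same 6 libraries. *Col24a1* had the fewest counts of the members, 12 to 44 in WT.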
